A study of Mus musculus with 10 samples.

Results

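Adipocytes of the mouse line 3T3-L1 grown beneath RAW 264.7 macrophages were compared with 3T3-L1 adipocytes grown alone, gene by gene across the whole array. The comparison took 6 of the 10 samples in the series, the 3 titled as adipocyte bilayer and the 3 titled as adipocyte monolayer, and every probe annotated to a single gene symbol. The other 4 samples were macrophages, 2 from the bilayer and 2 grown alone, and they entered only where the adipocyte response was set against the macrophage one. Of 19057 genes on the array, 11037 gave a signal above noise on at least 2 of the 6 adipocyte arrays and were tested.

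3T3-L1 is a fibroblast line from mouse embryo that can be turned into fat-storing cells, and RAW 264.7 is a mouse macrophage line. All adipocytes had been differentiated with IBMX, dexamethasone and insulin and carried visible lipid droplets at day 8. They were then detached and reseeded in 75 mm dishes in medium with 10% fetal bovine serum. For the bilayer, an insert of polycarbonate (pore size 0.4 µm) that carried the macrophages was set over the adipocytes after 18 h of settling, 25 mL of fresh medium was added, and both lines were harvested 24 h later. The membrane let secreted molecules pass and kept the cells apart. The labels do not say whether monolayer dishes held an empty insert or the same volume of medium, or how long after reseeding they were harvested. The macrophages, the membrane, the medium, the time in culture and the total number of cells cannot be told apart as sources of a difference. Each sample was a pool of 5 dishes. The labels do not say that pools came from separate cultures, so the p-values speak only of the spread among the pools at hand, which may be technical. Both lines are single established lines, and fewer cells of a kind and less RNA per cell cannot be told apart in such bulk samples.

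Fat tissue in obesity is infiltrated by macrophages, and fat cells and macrophages are known to signal to each other through cytokines, fatty acids and metabolites. Several pathways named below have known triggers. Low oxygen keeps prolyl hydroxylases from marking the transcription factor HIF for destruction, and HIF then turns on genes of glucose use, lactate export and blood vessel growth, as well as the hydroxylases themselves. Cytokines of the interleukin-6 family act through gp130, the kinases Jak1 and Jak2 and the factor Stat3. Interferons act through related kinases and induce a large set of antiviral genes.

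The arrays resembled each other closely. Arrays of the same group correlated at r = 0.988 to 0.991 across probes, and arrays of different conditions at 0.986 to 0.989. On each array 41.9% of probes exceeded the noise bound, an intensity of 10.9. The values had been normalized before deposit, so this equal share says nothing of the quality of the arrays. The 11 adipocyte marker genes on the array summed to an intensity of 69274 to 76591 in bilayer and 73155 to 77969 in monolayer adipocytes, and 10 or 11 of them were above noise on every adipocyte array. The 11 preadipocyte and fibroblast markers, led by Dlk1, were also measured, at summed intensities of 20049 to 20306 in bilayer and 19844 to 20334 in monolayer adipocytes. The 16 macrophage markers summed to 40.8 to 56.8 in bilayer adipocytes and 33.1 to 46.8 in monolayer adipocytes, against 93013 to 99623 in macrophages. Between 0 and 2 of the 16 were above noise on any adipocyte array, and Adgre1, Ptprc, Laptm5, Cd52 and Pf4, which define macrophages or blood cells, were above noise on none. Only 2 of the 16, Spi1 and Csf1r, passed the filter for testing, and neither passed the threshold (adjusted p = 0.828 and 0.962 by limma). Of 3 endothelial markers tested, 0 passed by limma, at adjusted p = 0.321 for Kdr and 0.689 for Pecam1. At an unadjusted p of 0.05, 0 genes of either list passed.

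**Figure D1:**
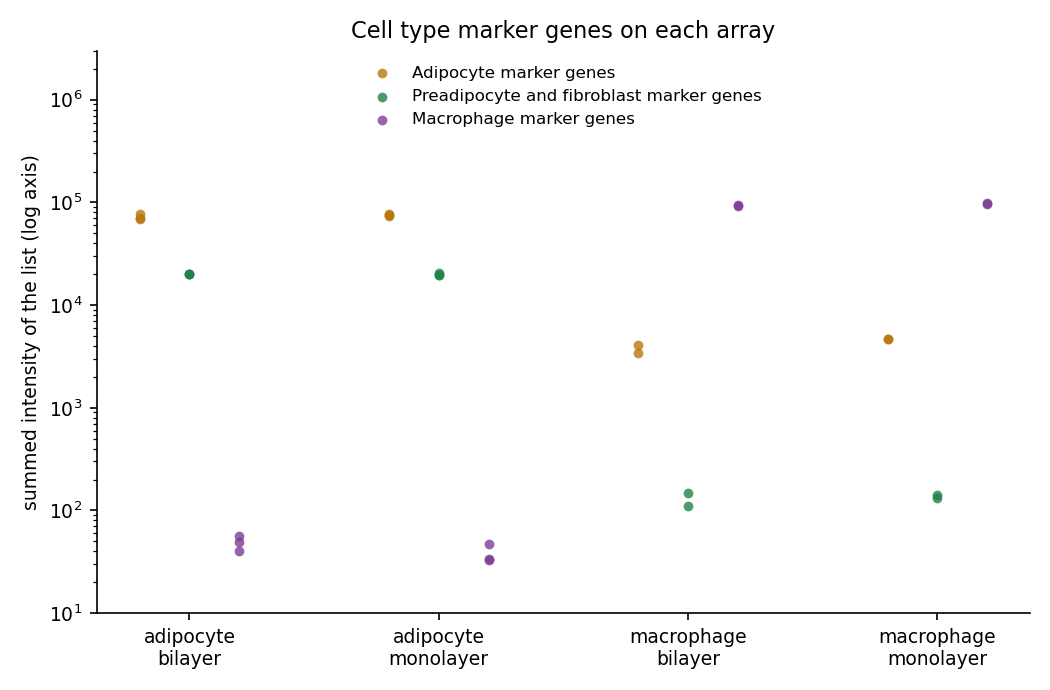
Summed intensity of 3 lists of cell type marker genes (vertical log axis) on each array, 1 point per array, in the 4 groups. The macrophage list lies at 40.8 to 56.8 on the bilayer and 33.1 to 46.8 on the monolayer adipocyte arrays, and at 93013 to 99623 on the macrophage arrays.

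By limma, with Benjamini-Hochberg adjustment over all genes tested, 1266 of 11037 genes (11.5%) passed an adjusted p of 0.05 in the comparison of bilayer with monolayer adipocytes. Of these 685 (6.21%) were higher in bilayer and 581 (5.26%) were lower. Rises reached further than falls, since 92 genes rose and 13 fell at least 2-fold, and 263 rose and 88 fell at least 1.5-fold. The median log2 change of all genes tested was -0.01. In all, 1 in 100 genes lay below -0.70 and another 1 in 100 above 0.95. All changes are on the scale of log2(intensity + 16), which understates the change of dim genes. Calls were fewer among dim genes, with 1.27% of the dimmest and 19.7% of the brightest of 4 equal groups past the threshold. For 1224 of the 1266 genes the 3 bilayer arrays did not overlap the 3 monolayer arrays, and the arrays did not overlap for 28.6% of all genes tested. Of 606 called genes with more than 1 probe, 495 had every probe in the same direction and 111 had another probe in the opposite direction, which itself passed the threshold for 1 gene.

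**Figure D2:**
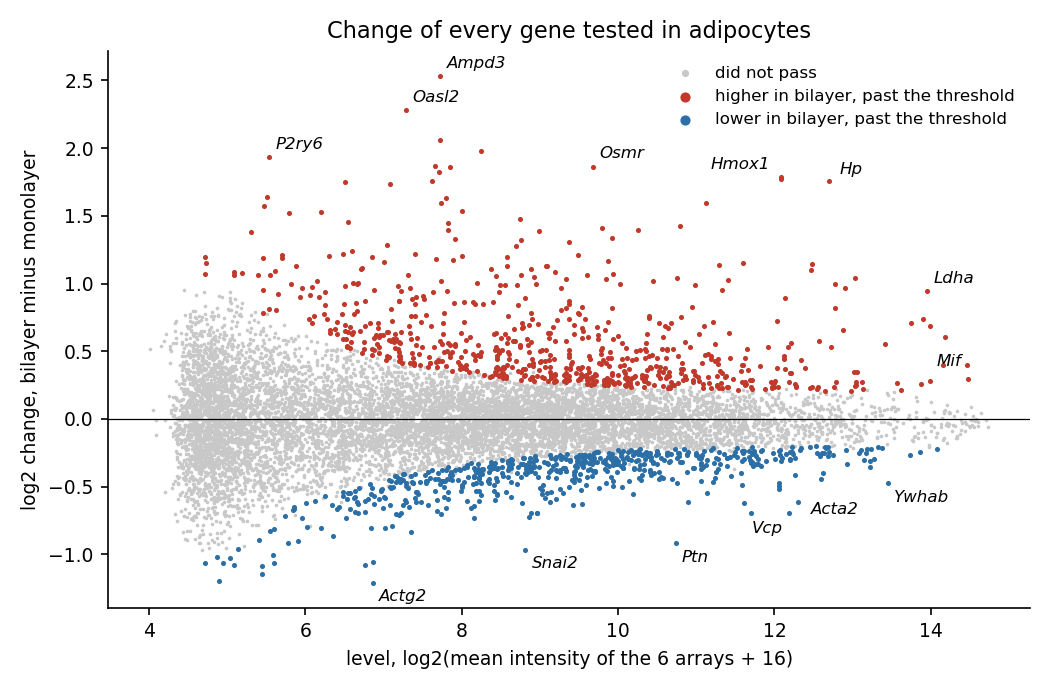
Log2 change (bilayer minus monolayer adipocytes, vertical axis) against mean level (log2 of intensity + 16, horizontal axis) for each of the 11037 genes tested. Red points are the 685 genes higher in bilayer, blue points the 581 lower, and grey points did not pass. Rises reach 2.53 (Ampd3) and falls -1.21 (Actg2).

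The count rested in part on single arrays and on how the variance was modelled. It was 756 without monolayer replicate 1 and 828 without monolayer replicate 3, 307 with no trend of the variance on the level, and 195 with no filter on dim probes. The counts for the gene groups below are to be read beside the 11.5% of all genes that passed. These counts moved with the total. Of 56 counts by group and direction, 55 were more than 1.5 times smaller with no filter, 49 with no variance trend and 27 without monolayer replicate 1. For oxygen sensing genes, for example, the 11 rises were 2 with no filter and 4 with no variance trend, and for spindle genes the 17 falls were 3 with no filter and 5 with no variance trend.

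The largest rise was in Ampd3, an AMP deaminase that turns AMP into IMP, which had intensities of 374, 327 and 335 in bilayer adipocytes and 37.0, 47.6 and 56.0 in monolayer adipocytes, a log2 change of 2.53 (SE 0.14, adjusted p = 1.62e-12 by limma). The lowest bilayer array stood several-fold above the highest monolayer array. Ak4, a mitochondrial adenylate kinase of the same nucleotide pool, gave 295, 424 and 216 in bilayer and 58.4, 63.5 and 105 in monolayer adipocytes (1.82, SE 0.18). Hmox1, which encodes the haem-degrading enzyme haem oxygenase, gave 6925, 6548 and 6733 in bilayer and 1742, 1905 and 2202 in monolayer adipocytes (1.79, adjusted p = 1.48e-14 by limma). Its bilayer arrays differed by far less from each other than from the monolayer arrays, and it had the smallest p of all genes. Hp, encoding haptoglobin, a plasma protein that binds free haemoglobin and is made by fat cells and liver, gave 9045, 11774 and 10055 in bilayer and 2787, 2970 and 3294 in monolayer adipocytes (1.76, adjusted p = 4.2e-14 by limma).

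Receptor and signalling genes were among the same group. Osmr, the receptor subunit for oncostatin M, had intensities of 1182, 1219 and 1403 in bilayer adipocytes and 325, 340 and 343 in monolayer adipocytes (1.86, SE 0.09, adjusted p = 4.2e-14 by limma). Macrophages carried little of it, at a mean of 41.0 in bilayer and 18.2 in monolayer. Bcl3, an atypical member of the inhibitor family of NF-kB, gave 127, 106 and 141 in bilayer and 23.4, 33.6 and 20.7 in monolayer adipocytes (1.75). Sema3g, a secreted semaphorin, gave 303, 346 and 252 in bilayer and 84.2, 57.8 and 69.8 in monolayer adipocytes (1.87). P2ry6, a receptor for the nucleotide UDP, was above noise on all bilayer arrays, at 68.7, 60.5 and 44.3, and on none of the monolayer arrays. It was therefore at least 2.72-fold higher in bilayer adipocytes (adjusted p = 1.14e-05 by limma). It passed the filter for testing only through the bilayer arrays, so the filter favoured a difference and this p is not independent support. Its level in macrophages was 4887 in bilayer and 5553 in monolayer, and the part of macrophage RNA in its rise was not tested. Oasl2, an interferon-induced relative of the oligoadenylate synthetases, gave 207, 276 and 247 in bilayer and 46.2, 31.3 and 34.8 in monolayer adipocytes (2.28). Its second probe changed by 0.42.

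Among the remaining large rises, Eno2 (2.06), a glycolytic enolase best known from neurons, had 377, 352 and 242 in bilayer and 47.5, 70.1 and 77.6 in monolayer adipocytes. Depp1, a target of FOXO factors, changed by 1.98, and Tmem82 by 1.86 with a wide bilayer spread of 349 ± 117, against 80.6 ± 1.17 in monolayer adipocytes (SD, n = 3 each). Ndrg1 changed by 1.76, and Car9, a cell surface carbonic anhydrase, by 1.74. The only probe annotated to Ghrh, the hypothalamic hormone that releases growth hormone, read 7037, 6866 and 6056 in bilayer and 1688, 1670 and 2571 in monolayer adipocytes (1.77, adjusted p = 6.24e-12 by limma). It was above noise on 1 of 4 macrophage arrays. Whether that signal is the hormone's own transcript was not tested.

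**Figure D3:**
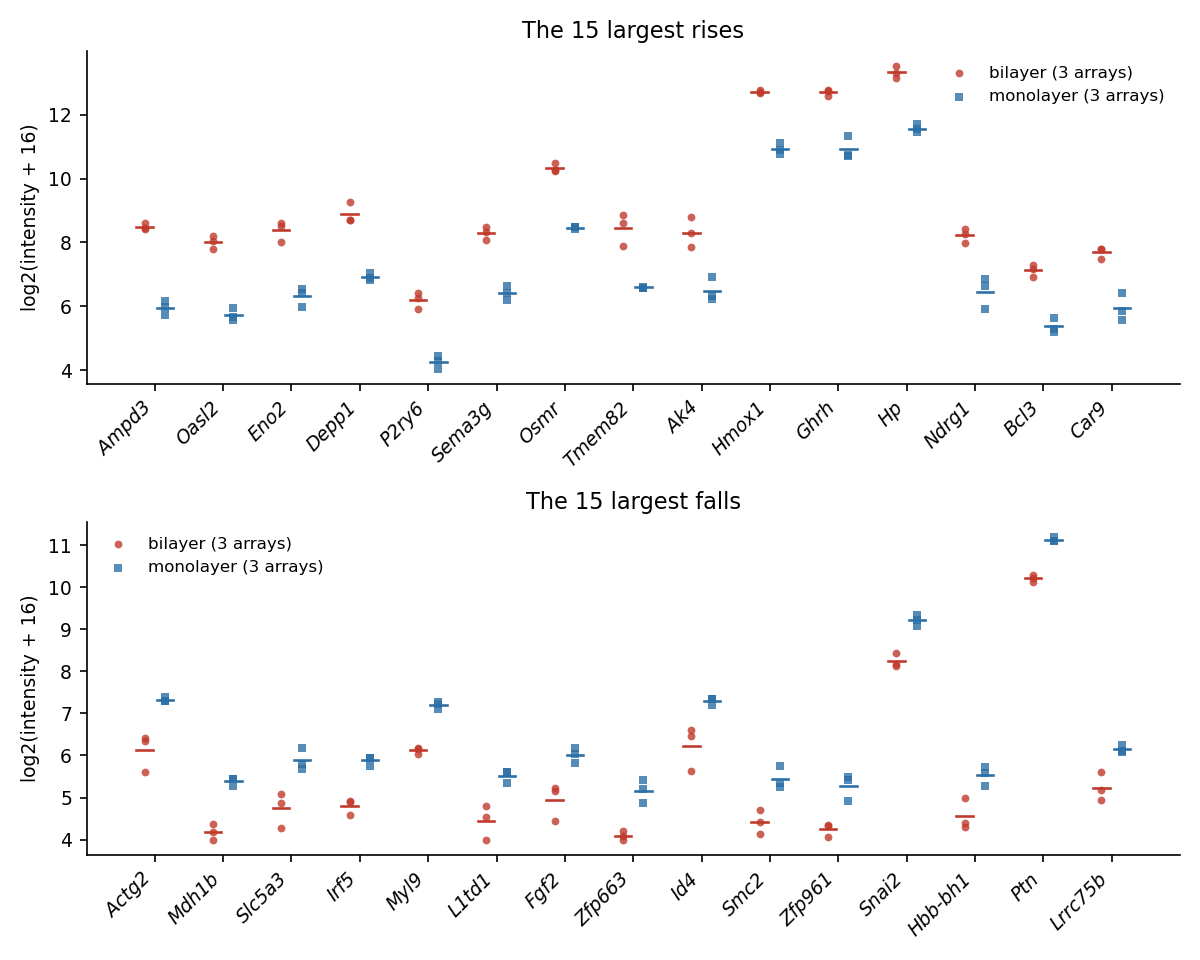
Level on each array (log2 of intensity + 16) of the 15 largest rises (upper panel) and the 15 largest falls (lower panel) whose groups do not overlap. Red circles are the 3 bilayer and blue squares the 3 monolayer adipocyte arrays, and short lines are group means. P2ry6 lies near the noise level in monolayer, and Mdh1b, Smc2, Zfp663 and Zfp961 do in bilayer.

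On the linear scale, the rises that added most signal included 4 transcripts of glycolysis. Ldha, which makes lactate from pyruvate, had intensities of 21388, 21053 and 20179 in bilayer adipocytes and 9860, 10574 and 12236 in monolayer adipocytes (0.94, adjusted p = 5.88e-10 by limma). Gapdh, often used as a reference transcript, gave 19478, 18942 and 18619 in bilayer and 11027, 10747 and 12528 in monolayer adipocytes (0.74). Aldoa, the aldolase, averaged 16991 ± 1304 in bilayer and 10386 ± 676 in monolayer adipocytes (SD, n = 3 each), and the triose isomerase gene Tpi1 averaged 20032 ± 1479 in bilayer and 12554 ± 2366 in monolayer adipocytes (SD, n = 3 each). In each of these 4 genes every bilayer array lay above every monolayer array, though another probe of Tpi1 changed by only 0.16 on the log2 scale. The groups also lay apart in 1224 of the 1266 called genes and in 28.6% of all genes tested. Mif, a cytokine that restrains macrophage movement, averaged 22464 ± 220 in bilayer and 14738 ± 555 in monolayer adipocytes (SD, n = 3 each), a change of 0.61. Angptl4, a secreted inhibitor of lipoprotein lipase, averaged 11203 ± 971 in bilayer and 5436 ± 140 in monolayer adipocytes (SD, n = 3 each), a change of 1.04. The metallothionein gene Mt1, whose product binds zinc and copper, rose by 0.40, at 25616 ± 798 in bilayer and 19437 ± 930 in monolayer adipocytes (SD, n = 3 each).

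The falls were smaller and many of the largest were in dim genes. Actg2, a smooth muscle actin, had intensities of 65.3, 32.6 and 69.1 in bilayer adipocytes and 141, 141 and 152 in monolayer adipocytes (-1.21, SE 0.18, adjusted p = 3.4e-05 by limma). Myl9, a myosin light chain of contractile cells, gave 55.5, 56.1 and 49.3 in bilayer and 139, 121 and 134 in monolayer adipocytes (-1.08). Snai2, a transcription factor that represses epithelial genes, gave 328, 264 and 275 in bilayer and 580, 628 and 527 in monolayer adipocytes (-0.97, adjusted p = 1.55e-07 by limma). Ptn, the growth factor pleiotrophin, which restrains fat cell formation, gave 1174, 1230 and 1096 in bilayer and 2324, 2167 and 2161 in monolayer adipocytes (-0.92, adjusted p = 1.36e-09 by limma). These 4 genes passed with each array left out. Irf5, an interferon regulatory factor known mainly from immune cells, read 14.2, 7.87 and 13.8 in bilayer and 45.7, 45.8 and 38.2 in monolayer adipocytes (-1.09).

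Several dimmer falls depended on single arrays. Slc5a3, the inositol transporter, fell by 1.14 on the log2 scale, and its call was lost without monolayer replicate 1 (adjusted p = 0.0747). Fgf2, a fibroblast growth factor, fell by 1.07, and its call was lost without monolayer replicate 2 (adjusted p = 0.0578). Lrrc75b fell by 0.92, and its call was lost without monolayer replicate 3 (adjusted p = 0.0571). L1td1 fell by 1.08 and lost its call without monolayer replicate 1 or 2 or bilayer replicate 3 (adjusted p = 0.0754 to 0.102). The probe of the embryonic globin gene Hbb-bh1 fell by 0.96 and lost its call without any 1 of 5 arrays, bilayer replicate 1 being the exception (adjusted p = 0.0579 to 0.174).

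Some genes had only a bound in 1 group, because none of its arrays was above noise. In monolayer adipocytes these were Apol9a, Ccl8, Gbe1, Gpr35, Gpr84, Hbegf, Il13ra1, Mob3b and P2ry6. All of them passed the filter for testing only through the bilayer arrays. The filter thus favoured a difference, and their calls and p-values are not independent support for it. Gpr35, a receptor that answers to kynurenic acid, was at least 2.56-fold higher in bilayer, where it had 53.8, 58.0 and 47.4. Its second probe changed by only 0.25 on the log2 scale. Il13ra1, a receptor chain for interleukin-13 and interleukin-4, was at least 2.45-fold higher in bilayer, with 36.3, 54.3 and 61.4. Apol9a, an apolipoprotein L gene with the close paralog Apol9b that the probe may not tell apart, was at least 2.10-fold higher in bilayer. Hbegf and Mob3b were each at least 1.68-fold higher in bilayer, the chemokine gene Ccl8 at least 1.39-fold, and the glycogen branching enzyme gene Gbe1 and the fatty acid receptor gene Gpr84 each at least 1.34-fold.

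Those last 5 calls were lost without certain arrays. Ccl8 lost its call without bilayer replicate 1 or any monolayer replicate (adjusted p = 0.0536 to 0.136), Hbegf without bilayer replicate 3 or monolayer replicate 1 or 3 (0.0521 to 0.136), and Mob3b without bilayer replicate 1 or 2 or monolayer replicate 1 or 2 (0.0742 to 0.133). Gbe1 lost it without any array other than bilayer replicate 3 (0.0920 to 0.373), and Gpr84 without any array (0.0533 to 0.379). Gpr84 read 4324 in bilayer and 4540 in monolayer macrophages, and the part of macrophage RNA in its rise was not tested. In bilayer adipocytes no array was above noise for Mdh1b, a malate dehydrogenase relative, the condensin gene Smc2, Zfp663 or Zfp961. These 4 genes passed the filter only through the monolayer arrays, so the filter favoured a difference for them too. In bilayer adipocytes Mdh1b was at least 1.55-fold lower, Smc2 at least 1.62-fold, Zfp663 at least 1.33-fold and Zfp961 at least 1.44-fold. Each of the 4 lost its call without 1 or more arrays, namely Mdh1b without monolayer replicate 1 or 3 (adjusted p = 0.0656 to 0.0739), Smc2 without any array but bilayer replicate 1 (0.0524 to 0.183), Zfp663 without any array (0.0518 to 0.186) and Zfp961 without any array but monolayer replicate 3 (0.0564 to 0.186).

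Genes by which cells sense and adjust to oxygen were, where they passed, mostly higher. Of 21 tested, 11 rose, 1 fell and 9 did not pass, with a median log2 change of 0.57 (0.54 with 1 gene at its bound), against -0.01 for all genes. Egln3, a prolyl hydroxylase that marks HIF for destruction and is itself a HIF target, had 3566, 3680 and 2814 in bilayer adipocytes and 1096, 973 and 1224 in monolayer adipocytes (1.59, SE 0.09, adjusted p = 2.36e-12 by limma). Its second probe changed by 0.48, and the mean of both probes gave 1.04. Egln1, the main such hydroxylase, had 356, 332 and 255 in bilayer and 101, 101 and 124 in monolayer adipocytes (1.40), and its 3 probes changed by 1.27 to 1.49. Both hydroxylases thus stood above every monolayer array on each bilayer array, and the groups lay apart in most called genes. The other rises were Ndrg1, Ankrd37 (1.32), the Myc antagonist Mxi1 (1.06), the mTOR inhibitor Ddit4 (1.03), the histone demethylases Kdm4b and Kdm3a (0.76 and 0.75), the clock repressor Bhlhe40 (0.68), the ubiquitin ligase subunit Vhl (0.54) and the mitophagy receptor Bnip3l (0.25). Epas1, which encodes HIF-2 alpha, fell by 0.48, and 0 genes of the list fell without bilayer replicate 1 or 2 or monolayer replicate 1 or 3.

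Genes of glucose entry, lactate export and glycogen that passed were higher. Of 17 tested, 10 rose, 0 fell and 7 did not pass, with a median of 0.53 (0.50 with Gbe1 at its bound). Slc2a1, the insulin-independent glucose transporter, had 3815, 3538 and 3486 in bilayer and 1411, 1797 and 2170 in monolayer adipocytes (1.03, adjusted p = 3.26e-08 by limma). Car9, which hydrates carbon dioxide outside the cell, had 162, 208 and 205 in bilayer and 31.9, 42.2 and 69.6 in monolayer adipocytes, and its 3 probes changed by 0.68 to 1.74. The remaining rises were in glycogen genes other than Ldha, namely the phosphatase targeting subunits Ppp1r3b (1.33) and Ppp1r3c (0.53), the glucose-1-phosphate enzymes Ugp2 (0.58) and Pgm1 (0.56), the synthase Gys1 (0.53), glycogenin Gyg (0.43) and Gbe1. Of the tricarboxylic acid cycle, 16 genes were tested, 0 rose and 1 fell (6.25%, against 11.5% of all genes), with a median of -0.01. That fall was in Sdhd, an anchor subunit of succinate dehydrogenase, at 517 ± 10.2 in bilayer and 680 ± 61.1 in monolayer adipocytes (SD, n = 3 each, -0.38), and it was lost without monolayer replicate 1 (adjusted p = 0.0581), while 2 genes fell without bilayer replicate 1. Idh3b, an isocitrate dehydrogenase subunit, did not pass (0.17, adjusted p = 0.0963 by limma).

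Amino acid and thermogenic genes passed in small numbers. In serine and one-carbon metabolism, 2 of 11 genes rose and 2 fell (36.4%, against 11.5% of all genes). The mitochondrial folate enzyme Aldh1l2 had 671, 737 and 766 in bilayer and 396, 421 and 473 in monolayer adipocytes (0.73), while Phgdh, the first enzyme of serine synthesis, fell by 0.39 on the log2 scale. The cytosolic relative Aldh1l1 rose by 0.52 and Shmt1 fell by 0.36. Both counts were 1 without monolayer replicate 1, and the rises were also 1 without bilayer replicate 1 or 2 or the other monolayer replicates. Of 18 genes of branched-chain amino acid breakdown, 2 rose (Bcat1 by 0.41 and Dbt by 0.22) (11.1%, against 11.5% of all genes). Neither call held without monolayer replicate 1 or 3 or any bilayer replicate, and 1 did without monolayer replicate 2. The adjusted p of Dbt was 0.0542 to 0.136 with an array left out, and that of Bcat1 0.0702 to 0.244 in the omissions that lost it. Of 7 brown and beige fat genes tested, 1 rose and 0 fell (14.3%, against 11.5% of all genes). The rise was in Cox7a1, a muscle and brown fat subunit of cytochrome oxidase. It had 1126, 990 and 990 in bilayer and 454, 414 and 610 in monolayer adipocytes (1.06, adjusted p = 5.83e-08 by limma). Cox8b, another such subunit, averaged 1462 ± 146 in bilayer and 1222 ± 215 in monolayer adipocytes (SD, n = 3 each), with overlapping arrays (adjusted p = 0.0854 by limma). A second brown fat gene passed without bilayer replicate 3 or monolayer replicate 1.

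Chemokine and interferon-induced genes that passed were, with 1 exception, higher in bilayer adipocytes. Of 16 chemokine ligands tested, 7 rose, 0 fell and 9 did not pass, with a median of 0.38 (0.32 with genes at their bound). Ccl2, which draws monocytes, had 590, 675 and 576 in bilayer adipocytes and 213, 249 and 173 in monolayer adipocytes (1.48, adjusted p = 4.83e-10 by limma). Ccl7, a related monocyte attractant, had 2165, 1900 and 1985 in bilayer and 1329, 1310 and 1065 in monolayer adipocytes (0.71). The others were Ccl8, the neutrophil attractant Cxcl1 (1.17), Ccl9 (0.41), the stromal chemokine Cxcl12 (0.40) and the membrane-bound Cx3cl1 (0.28). Macrophages carried Ccl2 at a mean of 3077 in bilayer and 3689 in monolayer, so it was 1 of the rises with a high level in the other line.

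Of 26 interferon-induced GTPase and Ifi genes, 11 rose, 1 fell and 14 did not pass, with a median of 0.27. Ifitm3, a membrane protein that blocks viral fusion, had 5415, 6705 and 5446 in bilayer and 3032, 3284 and 3075 in monolayer adipocytes (0.89, adjusted p = 5.22e-09 by limma). Ifi207, of the family of DNA-binding Ifi200 proteins, had 419, 582 and 552 in bilayer and 232, 220 and 192 in monolayer adipocytes (1.20). The other rises were Mx2 (1.52), Ifi202b (0.99), Ifitm1 (0.73), Irgm2 (0.67), Ifitm6 (0.66), Igtp (0.56), Ifit3 (0.55), Gbp3 (0.44) and Ifi27 (0.35). Irgm1 fell by 0.24, and 0 genes of the family fell without bilayer replicate 1 or 3 or monolayer replicate 1 or 2. Genes of the Ifi200, Ifitm and GTPase families are similar in sequence, and the probes may not tell all members apart.

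Promoters of these genes often carry the letters of the interferon-stimulated response element, to which interferon-activated factors bind. The letters GAAA, any 2 bases and GAAA again were searched on both strands of RefSeq promoter windows of assembly GRCm38.p6, each from 250 bases before to 50 bases after a gene's start. They stood in 2.94% of 11414 windows of tested genes, in 6 of 10 windows (60%) of the genes of this family that rose, and in 5 of 12 windows (41.7%) of those that did not pass. A match describes the window and shows no binding. The 3 windows shown were picked, by size of change, among windows of risen genes that hold the element. They do not stand for risen genes without it. Matches are in capitals.
Ifi207, chr1:173741760-173742059, reverse strand: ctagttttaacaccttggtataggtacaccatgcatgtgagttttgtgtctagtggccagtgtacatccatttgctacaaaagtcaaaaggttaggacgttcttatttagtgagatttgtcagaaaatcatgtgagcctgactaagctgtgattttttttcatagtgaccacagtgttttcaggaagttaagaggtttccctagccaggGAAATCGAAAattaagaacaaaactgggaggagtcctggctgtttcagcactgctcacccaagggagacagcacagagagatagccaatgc
Ifitm3, chr7:141010695-141010994, reverse strand: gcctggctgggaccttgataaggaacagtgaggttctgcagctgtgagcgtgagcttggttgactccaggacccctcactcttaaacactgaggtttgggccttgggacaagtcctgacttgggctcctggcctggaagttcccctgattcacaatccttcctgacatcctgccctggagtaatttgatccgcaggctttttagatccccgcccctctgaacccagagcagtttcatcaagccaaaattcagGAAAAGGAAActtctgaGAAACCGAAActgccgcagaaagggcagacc
Irgm2, chr11:58214727-58215026, forward strand: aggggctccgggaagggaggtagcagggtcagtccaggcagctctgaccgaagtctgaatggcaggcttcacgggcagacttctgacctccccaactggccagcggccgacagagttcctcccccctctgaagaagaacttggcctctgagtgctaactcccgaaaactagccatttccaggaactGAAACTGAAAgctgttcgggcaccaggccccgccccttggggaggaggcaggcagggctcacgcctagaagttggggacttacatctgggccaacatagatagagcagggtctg
In Ifi207 and Irgm2 the element occurred 1 time, and in Ifitm3 2 times.

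For the oxygen response, whose binding core is ACGTG or GCGTG on either strand, the core stood in 7 of 11 windows (63.6%) of oxygen sensing genes that rose and in 9 of 11 windows (81.8%) of those that did not pass, against 60% of all windows. ACGTG alone stood in 6 of 11 windows (54.5%) of either kind, against 24.8% of all windows. In genes of any kind that rose at least 2-fold, the core stood in 61.5% of windows and ACGTG in 33.0%. No window is printed for it.

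Antigen presentation and gp130 signalling genes rose in part. Of 19 genes of MHC class I presentation, 4 rose and 0 fell (21.1%, against 11.5% of all genes), with a median of 0.18. Tap1, which carries peptides into the endoplasmic reticulum, averaged 83.5 ± 18.1 in bilayer and 36.7 ± 14.2 in monolayer adipocytes (SD, n = 3 each, 0.93, adjusted p = 0.00318 by limma). H2-T23, a non-classical class I gene, rose by 0.38, the immunoproteasome subunit Psmb9 by 0.55 and the light chain B2m by 0.28. Of 23 genes of gp130 and STAT3 signalling, 9 rose, 0 fell and 14 did not pass, with a median of 0.16. They held the receptor chains Osmr and Il6st (0.62), the kinases Jak1 (0.54) and Jak2 (0.63), the factor Stat3 (0.71) and its targets Socs3, Bcl3, Cebpd (0.74) and Junb (0.51). Socs3, the feedback inhibitor, had 750, 922 and 850 in bilayer and 476, 441 and 458 in monolayer adipocytes (0.85, adjusted p = 1.69e-07 by limma). Of the 23 genes, 18 had a log2 change above 0 and 5 below. In the caspase and Bcl2 list, 3 of 26 rose and 1 fell (15.4%, against 11.5% of all genes). The inflammatory caspase gene Casp4 had 248, 260 and 295 in bilayer and 108, 117 and 101 in monolayer adipocytes (1.18), and its 3 probes spanned 0.06 to 1.18. Casp6 rose by 0.40 and Bcl2l2 by 0.31, while Cflar fell by 0.39, a fall that was 0 genes without monolayer replicate 1 and 2 genes without bilayer replicate 1.

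Secreted proteins of fat cells rose in part. Of 16 adipocyte hormones and binding proteins tested, 4 rose and 0 fell (25%, against 11.5% of all genes), with a median of -0.04. Lcn2, lipocalin-2, which binds bacterial iron carriers, had 169, 259 and 238 in bilayer and 78.8, 82.9 and 93.6 in monolayer adipocytes (1.22). Rarres2, which encodes chemerin, an attractant for immune cells, had 20871, 20235 and 20882 in bilayer and 16123, 15246 and 15714 in monolayer adipocytes (0.40). Another of its 3 probes changed by -0.27, and the call was lost when probes were averaged (adjusted p = 0.0763). Igfbp3 rose by 0.50 and Nampt by 0.28. Among the serpins, inhibitors of proteases, 3 of 13 rose and 0 fell (23.1%, against 11.5% of all genes). Their median was -0.02 (0 with genes at their bound). Serpina3n had 539, 521 and 683 in bilayer and 309, 363 and 318 in monolayer adipocytes (0.78), Serpina3f rose by 1.21 and Serpinb6a by 0.28. Serpina3f and Serpina3n are close paralogs.

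Growth factor ligands changed in both directions. Of 31 angiogenic and growth factor ligands, 7 rose and 3 fell, with a median of 0.06. Besides Angptl4 and Hbegf, the rises were the vasodilator peptide gene Adm (1.11), the activin subunit Inhba (0.92), Vegfa (0.56), Gas6 (0.27) and Igf2 (0.27). The falls were Ptn, Fgf2 and Vegfd, the last by 0.31. The rises were 4 without monolayer replicate 1, and the falls were 1 without monolayer replicate 2. Of 19 semaphorins and plexins, guidance ligands and their receptors, 3 rose (Sema3g, Sema4g and Sema7a) and 2 fell (Sema3a by 0.66 and Plxnd1 by 0.29), and the falls were 0 or 1 with any 1 array left out other than bilayer replicate 3. Sema4g had 88.1, 105 and 88.3 in bilayer and 24.4, 34.2 and 37.1 in monolayer adipocytes (1.20).

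Transforming growth factor beta and bone morphogenetic protein signalling also changed in both directions. Of 29 tested, 7 rose and 3 fell, with a median of 0.06. The rises were in receptors and regulators, namely Tgfbr2 (0.53), Tgfbr1 (0.35), Acvr1b (0.62), Bmpr1a (0.28), the corepressors Tgif1 (0.63) and Skil (0.43), and the latency protein Ltbp3 (0.40). The 3 falls were all in Id genes, inhibitors of basic helix-loop-helix factors that bone morphogenetic proteins induce. Id1 had 1784, 1875 and 1788 in bilayer and 2825, 2580 and 2578 in monolayer adipocytes (-0.55, adjusted p = 4.21e-06 by limma), Id3 changed by -0.62, and Id4 had 33.5, 72.6 and 80.6 in bilayer and 145, 145 and 130 in monolayer adipocytes (-1.05). The rises were 4 without monolayer replicate 1. The 3 probes of Tgfbr2 spanned -0.30 to 0.53, and its call was lost when they were averaged (adjusted p = 0.383). Of 25 Wnt and Notch genes, 1 rose (Ccn5 by 0.44) and 1 fell (Hey1 by 0.57) (8%, against 11.5% of all genes). The Hey1 call was lost without bilayer replicate 1 or 2 or monolayer replicate 1 or 3 (adjusted p = 0.103 to 0.234), and 2 genes rose without bilayer replicate 3.

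Collagen-modifying enzymes changed in both directions. Of 19 such genes, 5 rose and 3 fell, with a median of 0.06. P4ha2, a subunit of the prolyl hydroxylase that stabilises collagen, had 2601, 2627 and 2498 in bilayer adipocytes and 914, 859 and 1088 in monolayer adipocytes (1.42, adjusted p = 2.13e-12 by limma). Plod2, a lysyl hydroxylase, had 682, 863 and 796 in bilayer and 372, 360 and 340 in monolayer adipocytes (1.09), though another of its 3 probes changed by -0.05. P4ha1 rose by 1.13, Plod1 by 1.02 and the procollagen peptidase enhancer Pcolce by 0.43. The falls were Pcolce2 (-0.73) and the oxidases Lox (-0.31) and Loxl1 (-0.25), and they were 1 without monolayer replicate 2. Among matrix proteases and inhibitors, 3 of 26 rose and 1 fell (15.4%, against 11.5% of all genes). Mmp11 had 920, 939 and 925 in bilayer and 338, 349 and 411 in monolayer adipocytes (1.31, adjusted p = 6.3e-11 by limma), and Mmp13 and Mmp3 rose by 0.80 and 0.81. The probes of Mmp13 spanned 0.17 to 1.05, and its call was lost when they were averaged (adjusted p = 0.0716 by limma). Adam17 fell by 0.28, and that count was 0 without any 1 array other than bilayer replicate 1 or monolayer replicate 1, and 2 without bilayer replicate 1.

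Contractile genes changed singly. Of 27 contractile and serum response factor targets, 1 rose and 3 fell (14.8%, against 11.5% of all genes), with a median of -0.13. Acta2, the actin of smooth muscle and myofibroblasts, had 4027, 3824 and 4083 in bilayer and 6167, 6610 and 5531 in monolayer adipocytes (-0.61, adjusted p = 8.18e-07 by limma), and its 4 probes changed by -0.77 to -0.61. Actg2 and Myl9 were the other falls. Zyx rose by 0.25, a rise that was lost without bilayer replicate 2 or 3 or monolayer replicate 1 or 2. Actb, the actin of all cells, averaged 8510 ± 406 in bilayer and 10555 ± 171 in monolayer adipocytes (SD, n = 3 each, -0.31), and lost its call without bilayer replicate 2 (adjusted p = 0.347) or monolayer replicate 3 (0.0937). Of 17 integrins 29.4% were called, against 11.5% of all genes. Here 3 rose (Itga5 by 0.56, Itgae by 0.58 and Itgb5 by 0.34) and 2 fell (Itga6 by 0.34 and Itgal by 0.54). The falls were 0 or 1 with any array left out. The fibronectin receptor subunit Itga5 had 442, 441 and 438 in bilayer and 291, 284 and 305 in monolayer adipocytes.

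Cell division genes that passed were lower. Of 31 spindle and kinetochore genes tested, 17 fell, 0 rose and 14 did not pass, and the median was -0.45. Cdca3, which helps trigger entry into mitosis, had 554, 468 and 539 in bilayer adipocytes and 855, 824 and 769 in monolayer adipocytes (-0.64, adjusted p = 1.16e-05 by limma). Cenpa, the histone variant that marks centromeres, had 1415, 1397 and 1348 in bilayer and 2016, 1911 and 1765 in monolayer adipocytes (-0.45). The other falls ran from -0.33 to -0.83 and were Kif2c, Kif20b, Cdca2, Plk1, Cenpn, Tpx2, Kif4, Aurka, Cdca8, Incenp, Bub1b, Nusap1, Prc1, Cdk1 and Mad2l1. They span motors, kinases and checkpoint proteins of mitosis. The count was 10 without monolayer replicate 2. Of 35 DNA replication genes, 10 fell and 0 rose, with a median of -0.21, and the count was 5 without monolayer replicate 2. Mcm5, a subunit of the replicative helicase, averaged 443 ± 12.3 in bilayer and 654 ± 97.2 in monolayer adipocytes (SD, n = 3 each, -0.54). Rpa2, which coats single-stranded DNA, fell by 0.61 on the log2 scale, though another of its probes changed by only -0.16. The remaining falls were Gins1, Mcm10, Gins2, Tk1, Lig1, Cdc45, Tyms and Mcm4.

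Many promoters of mitotic genes hold the cell cycle genes homology region, read here as the letters TTTGAA on either strand. It stood in 12.1% of all windows of tested genes and in 17.3% of the windows of genes that fell. In the spindle list it stood in 13 of 15 windows (86.7%) of genes that fell and in 10 of 14 (71.4%) of genes that did not pass. In the replication list it stood in 1 of 9 windows (11.1%) of fallen genes. A total of 4 windows of fallen spindle genes is printed, picked by size of change among those that hold the letters. The letters are in capitals, to show where they lie relative to the gene's start near the right end.
Kif2c, chr4:117178723-117179022, reverse strand: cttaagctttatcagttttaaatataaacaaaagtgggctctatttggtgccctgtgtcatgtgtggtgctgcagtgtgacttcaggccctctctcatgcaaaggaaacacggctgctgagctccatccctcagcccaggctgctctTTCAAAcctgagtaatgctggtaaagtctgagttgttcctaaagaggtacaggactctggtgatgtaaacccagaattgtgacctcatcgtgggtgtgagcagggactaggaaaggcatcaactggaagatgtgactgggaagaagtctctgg
Kif20b, chr19:34922108-34922407, forward strand: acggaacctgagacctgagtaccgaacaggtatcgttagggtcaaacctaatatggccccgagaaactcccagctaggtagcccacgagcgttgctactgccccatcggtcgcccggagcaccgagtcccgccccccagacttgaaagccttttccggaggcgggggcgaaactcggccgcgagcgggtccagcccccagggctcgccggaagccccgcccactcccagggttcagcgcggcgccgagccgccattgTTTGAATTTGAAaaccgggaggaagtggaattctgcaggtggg
Cdca3, chr6:124829926-124830225, forward strand: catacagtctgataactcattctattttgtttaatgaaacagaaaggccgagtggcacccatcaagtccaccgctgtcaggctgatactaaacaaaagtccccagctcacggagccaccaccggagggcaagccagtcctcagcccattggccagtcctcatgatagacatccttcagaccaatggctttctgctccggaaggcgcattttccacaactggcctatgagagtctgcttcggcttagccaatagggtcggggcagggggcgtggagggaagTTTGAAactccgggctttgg
Plk1, chr7:122159185-122159484, forward strand: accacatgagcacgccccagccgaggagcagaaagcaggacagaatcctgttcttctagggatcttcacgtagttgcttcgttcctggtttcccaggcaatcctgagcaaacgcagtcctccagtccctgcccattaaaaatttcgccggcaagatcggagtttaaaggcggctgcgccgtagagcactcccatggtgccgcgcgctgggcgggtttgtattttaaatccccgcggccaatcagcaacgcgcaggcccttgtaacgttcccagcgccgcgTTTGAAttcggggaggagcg
In Cdca3, Plk1 and Kif20b the letters stand in the last part of the window. In Kif2c they stand near its middle on the opposite strand, as TTCAAA.

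Growth arrest genes moved both ways. Of 22 p53 targets and growth arrest genes, 6 rose and 3 fell, with a median of 0.09. Gadd45a, a stress-induced brake on the cycle, had 2961, 2431 and 2177 in bilayer and 1369, 1313 and 1531 in monolayer adipocytes (0.83). The other rises were Plk2 (0.76), the death receptor Fas (0.67), Btg1 (0.53), Plk3 (0.44) and Cdkn2b (0.37). The CDK inhibitor gene Cdkn2c had 2484, 2654 and 2459 in bilayer and 3447, 3609 and 3610 in monolayer adipocytes (-0.49, adjusted p = 1.25e-05 by limma). Sesn1 fell by 0.34 and Gadd45g by 0.28, and the falls were 1 without monolayer replicate 1 or bilayer replicate 2.

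Histone genes, most of which are transcribed in S phase, fell in number. Of 53 tested, 23 fell, 1 rose (H3f3b by 0.21) and 29 did not pass, with a median of -0.28. H2bc11 had 1389, 1470 and 1449 in bilayer adipocytes and 2009, 2026 and 1952 in monolayer adipocytes (-0.47), and H2bc12 had 828, 800 and 791 in bilayer and 1111, 1070 and 1166 in monolayer adipocytes (-0.46). The falls spanned genes of all 4 core histones, from -0.23 in H2bc4 to -0.68 in H4c17. Histone genes of a kind are nearly identical, so the probes may not tell them apart and the 23 falls are not 23 separate measurements. The count was 12 without monolayer replicate 1 and 15 without monolayer replicate 3, 5 with no variance trend, and the rise was 0 without any 1 array other than bilayer replicate 3.

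Some genes of the proteasome and of mitochondria passed with small falls, while most did not pass. Of 35 proteasome genes, 13 fell, 1 rose and 21 did not pass, with a median of -0.21. The falls lay between -0.20 and -0.32, and Psmb2, a core subunit, had 3378, 2939 and 3212 in bilayer and 3922, 3948 and 3825 in monolayer adipocytes (-0.30). A second probe of Psmb2 changed by -0.13. Psmc3ip, which is among the 13, shares the prefix but is no proteasome subunit. The interferon-induced subunit Psmb9 was the rise, with 223, 280 and 273 in bilayer and 161, 151 and 205 in monolayer adipocytes. Of 74 mitochondrial ribosomal proteins, 14 fell, 0 rose and 60 did not pass (18.9% called, against 11.5% of all genes). The median was -0.15, and 68 of 74 were below 0. Mrps11 averaged 863 ± 8.01 in bilayer and 1232 ± 142 in monolayer adipocytes (SD, n = 3 each, -0.50), and Mrps6 averaged 8364 ± 668 in bilayer and 10686 ± 265 in monolayer adipocytes (SD, n = 3 each, -0.36). Of 50 cytosolic ribosomal proteins, 1 rose (Rpl22) and 1 fell (Rps27l), or 4% of the family against 11.5% of all genes, and each lost its call with some arrays left out (adjusted p = 0.0539 to 0.169).

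Of 42 genes with complex I symbols, 7 fell, 0 rose and 35 did not pass (16.7% called, against 11.5% of all genes), with a median of -0.10. The subunit genes were Ndufb7 (-0.47), Ndufc2 (-0.25), Ndufa4 (-0.24), since assigned to cytochrome oxidase, and Ndufa11 (-0.21), and the others, Ndufaf3, Ndufaf5 and Ndufaf8, encode assembly factors. Ndufa4 had 13420, 13675 and 13775 in bilayer and 16109, 16061 and 16138 in monolayer adipocytes. Ndufc2 lost its call without monolayer replicate 1 (adjusted p = 0.0592). ND1, a complex I subunit encoded in the mitochondrial genome, averaged 16036 ± 772 in bilayer and 18685 ± 1077 in monolayer adipocytes (SD, n = 3 each, -0.22), a call lost without bilayer replicate 1 or 2 or monolayer replicate 1 or 3 (adjusted p = 0.0692 to 0.142). The 3 families were among the counts most open to the setting. With no variance trend each had 0 falls, and without single arrays the proteasome count was 7 (monolayer replicate 1), 7 (monolayer replicate 2), 2 (monolayer replicate 3) and 5 (bilayer replicate 2). The mitochondrial ribosomal count was 5, 7 and 8 without monolayer replicate 1, monolayer replicate 3 and bilayer replicate 2, and the complex I count 2, 4 and 4 without monolayer replicate 1, bilayer replicate 2 and bilayer replicate 3.

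Abundant transcripts outside these families also fell. Vcp, an ATPase that pulls proteins out for breakdown, had 3504, 3472 and 3684 in bilayer and 5699, 5626 and 5912 in monolayer adipocytes (-0.69, adjusted p = 2.79e-08 by limma). Ywhab, a 14-3-3 adaptor protein, had 8851, 9603 and 9564 in bilayer and 13536, 13170 and 12245 in monolayer adipocytes (-0.47). In both genes every bilayer array lay below every monolayer array, and the groups lay apart in most called genes. A second probe of Ywhab changed by only -0.16. Prdx1, a peroxide-reducing enzyme, averaged 12411 ± 951 in bilayer and 14867 ± 366 in monolayer adipocytes (SD, n = 3 each, -0.26), but its other probe changed by 0.23, and the call was lost when the probes were averaged (adjusted p = 0.941), without monolayer replicate 1 (0.0645) or without bilayer replicate 2 (0.0571). In the ribosome biogenesis list, 3 of 29 fell and 1 rose (13.8%, against 11.5% of all genes), with Nhp2 at -0.39, Bop1 at -0.37, Nop56 at -0.34 and Npm1 at 0.25. Bop1 lost its call without bilayer replicate 2 or monolayer replicate 3 (adjusted p = 0.0566 to 0.0665). The rise was 0 without bilayer replicate 3 or any monolayer replicate, and 5 genes fell without bilayer replicate 1.

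**Figure D4:**
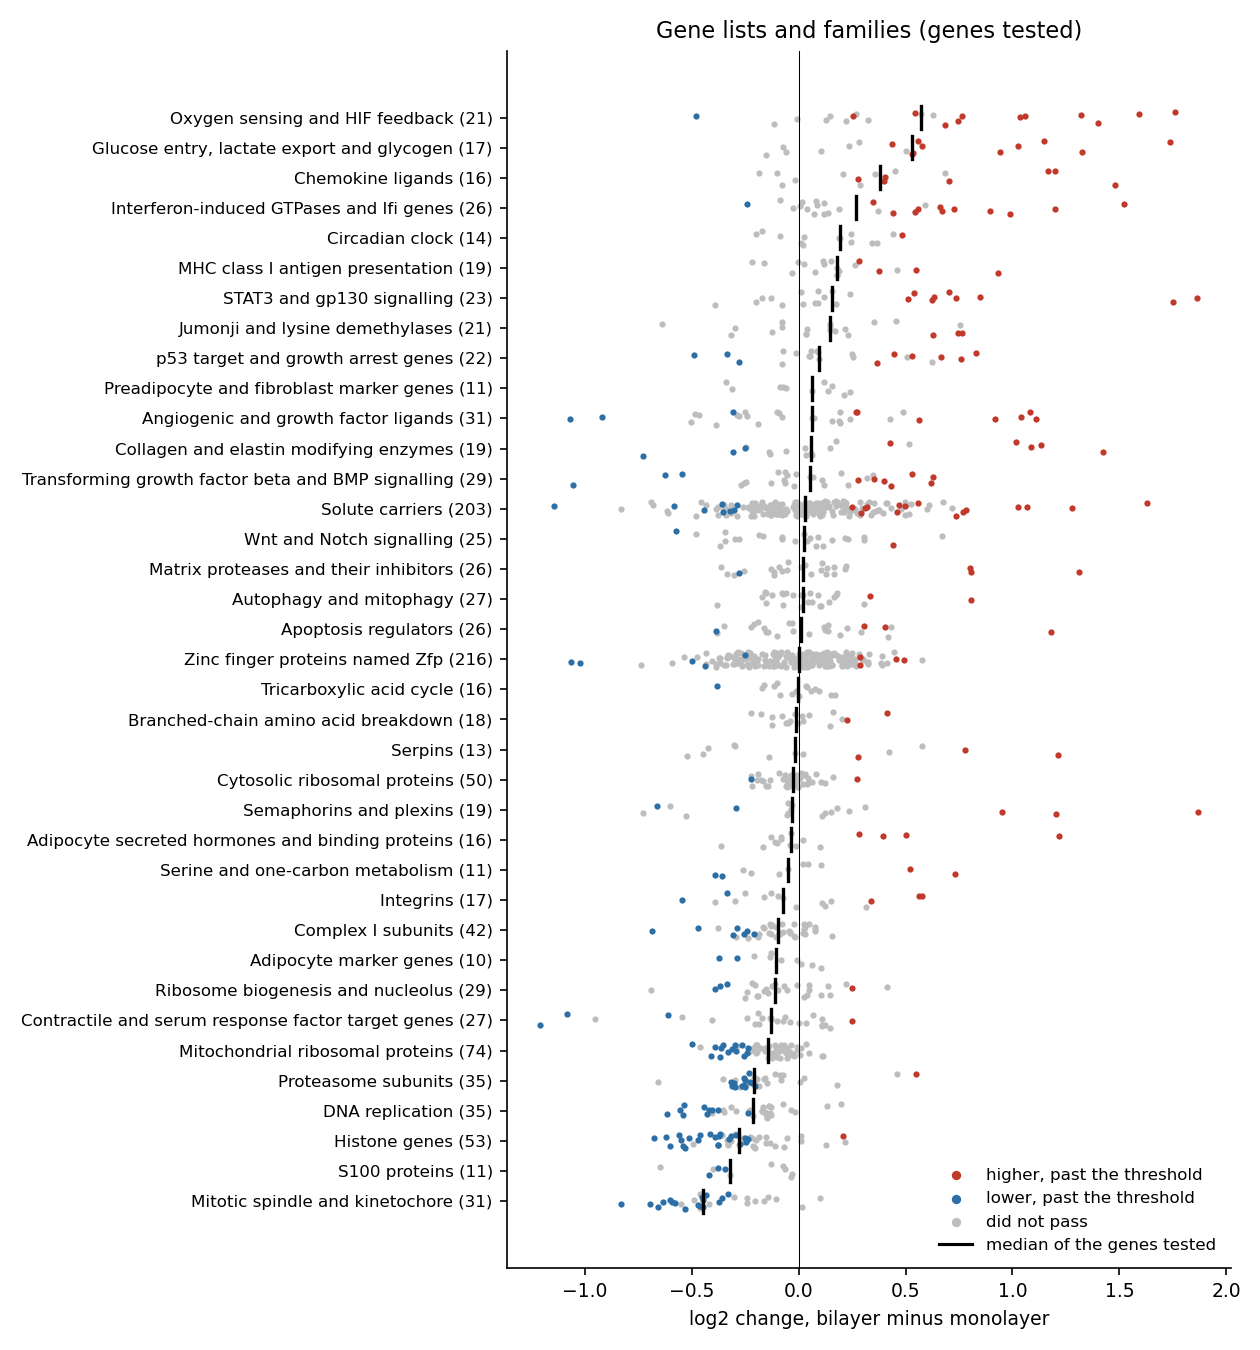
Log2 change (bilayer minus monolayer adipocytes, horizontal axis) of each tested gene in the lists and symbol families with at least 10 genes tested, whose number stands in brackets. Red and blue points passed the threshold as higher and lower, grey points did not, and black bars are medians. Medians run from -0.45 (mitotic spindle and kinetochore) to 0.57 (oxygen sensing), against -0.01 for all genes tested.

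Transporters and chromatin enzymes included single large changes. Of 203 solute carriers, 15 rose and 8 fell, or 11.3% of them against 11.5% of all genes, and the falls were 5 without monolayer replicate 1 or 3. Slc25a34, an orphan mitochondrial carrier, had 320, 352 and 286 in bilayer and 83.7, 69.0 and 133 in monolayer adipocytes (1.63, adjusted p = 2.79e-08 by limma). The next rises by size, named after their values were seen, were Slc4a4 (1.28), a bicarbonate cotransporter, Slc10a6 (1.07), which carries sulphated steroids, and Slc2a1. Of 21 jumonji and lysine demethylases, 3 rose and 0 fell (14.3%, against 11.5% of all genes), with Jmjd6 at 2769, 2367 and 2490 in bilayer and 1666, 1548 and 1697 in monolayer adipocytes (0.63). Kdm4b had 1592, 1876 and 1543 in bilayer and 849, 937 and 1161 in monolayer adipocytes (0.76), and 5 genes rose without bilayer replicate 3. Of 216 genes named Zfp, 4 rose and 5 fell, a share of 4.17%. Of these Zfp532 rose by 0.49 and Zfp639 by 0.29, and the Zfp639 call was lost without bilayer replicate 1 or monolayer replicate 1 or 3 (adjusted p = 0.0537 to 0.145). The rises numbered 1 without monolayer replicate 1, 2 without monolayer replicate 3 or bilayer replicate 1 or 2, and 7 without bilayer replicate 3, and the falls 0 to 3 without any 1 array. Of 11 S100 proteins, which bind calcium, 3 fell and 0 rose, with a median of -0.32 (-0.13 with 1 gene at its bound), and the count was 1 without monolayer replicate 1 or bilayer replicate 2. S100a13 averaged 2369 ± 230 in bilayer and 3167 ± 80.8 in monolayer adipocytes (SD, n = 3 each, -0.42). S100a4 fell by 0.38, and its call was lost without monolayer replicate 1 (adjusted p = 0.0606) or bilayer replicate 2 (0.0665).

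Few autophagy and clock genes passed the threshold. The mitophagy receptor Bnip3l and the clock repressor Bhlhe40, given above as rises among the oxygen sensing genes, are not counted here. Of 27 autophagy genes, 2 rose and 0 fell (7.41%, against 11.5% of all genes), namely the initiating kinase Ulk1, with 770, 880 and 671 in bilayer and 384, 450 and 471 in monolayer adipocytes (0.81), and the cargo receptor Sqstm1 (0.34). Of 14 clock genes 1 passed (7.14%), while 8 passed at an unadjusted p of 0.05, 11 had a log2 change above 0 and the median was 0.19. Per2 rose, at 403 ± 67.3 in bilayer and 281 ± 22.5 in monolayer adipocytes (SD, n = 3 each, 0.48), and Clock did not pass (-0.20, adjusted p = 0.111 by limma). A second clock gene rose without bilayer replicate 3 or monolayer replicate 3.

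Genes that define the fat cell and its precursor changed by little. Of 10 adipocyte markers tested, 0 rose and 2 fell (20%, against 11.5% of all genes). Cebpa, a factor that drives fat cell formation, had 416, 428 and 303 in bilayer and 464, 510 and 511 in monolayer adipocytes (-0.37), and the fatty acid binding protein Fabp4 had 385, 381 and 375 in bilayer and 460, 498 and 449 in monolayer adipocytes (-0.29). Cebpa lost its call without bilayer replicate 3 or monolayer replicate 2 or 3 (adjusted p = 0.104 to 0.166), and Fabp4 without any 1 array (0.0568 to 0.182). With all 10 arrays in the fit neither passed (adjusted p = 0.148 and 0.176). Of 11 preadipocyte and fibroblast markers 0 passed by limma, at adjusted p = 0.0544 for Col3a1 and 0.0781 for Fn1, and 3 passed at an unadjusted p of 0.05.

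The adipocyte response was then set against that of the macrophages above them. The difference of the responses, adipocyte minus macrophage, passed for 315 of 12324 genes (2.56%) in a limma fit of all 10 arrays, 185 higher and 130 lower. The largest positive differences were in Oasl2 (2.97), Ampd3 (2.52), Slc25a34 (2.22), Sema3g (2.14) and Hmox1 (2.12). Ampd3 is an example of a gene that macrophages carried at a level that hardly moved, at 679 ± 17.5 in bilayer and 676 ± 40.3 in monolayer macrophages (SD, n = 2 each). The largest negative differences were in Arg1 (-2.84), Il1r2 (-2.71), Tnfrsf9 (-2.40), Rgcc (-2.09) and Gpat3 (-1.99). The adjusted p of the 10 genes was 1.7e-06 to 0.0472 by limma, and Tnfrsf9, at the upper end, lost its call without bilayer adipocyte replicate 2 or 3, monolayer adipocyte replicate 1 or 3 or any macrophage array (0.0773 to 0.181). Arg1 and Il1r2 were not above noise on any adipocyte array. Arg1 passed the filter of that fit only through the 2 bilayer macrophage arrays. The filter thus favoured a difference, and the p of Arg1 is not independent support for it. Arrays at the floor, as for Arg1 and Il1r2 in adipocytes and Sema3g in macrophages, also added little scatter to the fit. Rgcc, a regulator of the cell cycle, had 425 ± 49.3 in bilayer and 389 ± 6.80 in monolayer adipocytes (SD, n = 3 each). Gpat3, which starts triglyceride synthesis, went in opposite directions, by -0.43 in adipocytes and 1.56 in macrophages. Neither Rgcc nor Gpat3 was above noise in monolayer macrophages, and they averaged 95.6 and 46.4 in bilayer macrophages. Their macrophage changes are therefore measured from the floor. The count of differences was 104 without bilayer macrophage replicate 1 and 81 with no variance trend. It lay between 128 and 203 without bilayer macrophage replicate 2, either monolayer macrophage replicate, bilayer adipocyte replicate 2 or monolayer adipocyte replicate 1 or 2.

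In macrophages alone 164 of 10326 genes (1.59%) passed. Of 576 adipocyte rises that were also tested in macrophages, 31 were higher there too and 4 were lower. The 31 were 5.38% of those adipocyte rises and 41.9% of the 74 macrophage rises tested in adipocytes. Among the 31 were Ndrg1 (1.76 in adipocytes and 1.87 in macrophages), Depp1 (1.98 and 1.63), Plod2 (1.09 and 1.16) and Ddit4 (1.03 and 0.92), named after their values were seen. Of 503 adipocyte falls tested in both, 5 (0.99%) were lower in macrophages too, namely Id1, Id3, Tfrc, Ifrd2 and Nrp1, and 2 were higher. These counts are to be read beside 74 macrophage rises and 60 macrophage falls among all 9363 genes tested in both lines. Across the 9363 genes tested in both lines the log2 changes correlated at r = 0.04 and rho = 0.02, a description over genes, which are not independent replicates. Of the 685 adipocyte rises, 99 were in genes not above noise on any macrophage array, as were 19 of the 92 that rose at least 2-fold. The same share over all genes tested was not counted, so these counts do not set the rises apart. By the test filter, 9363 of 11037 adipocyte genes were also tested in macrophages, as were 576 of 685 rises and 503 of 581 falls.

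**Figure D5:**
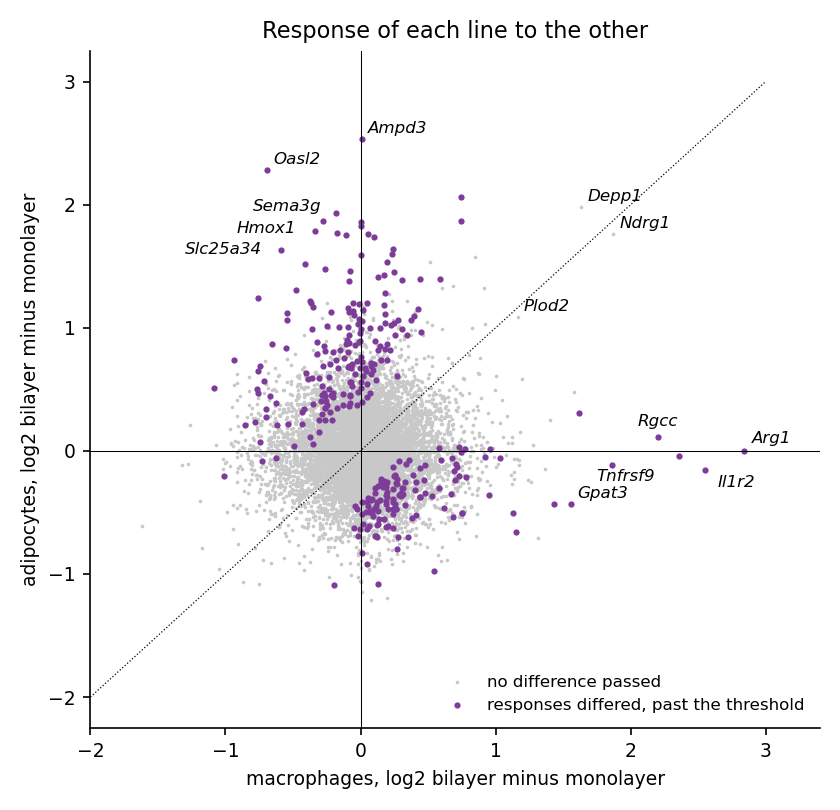
Log2 change from monolayer to bilayer in adipocytes (vertical axis) against that in macrophages (horizontal axis), 1 point per gene tested over the 10 arrays, with the dotted line at equal change. Purple points are the 315 genes whose responses differed past the threshold. Ndrg1, Depp1 and Plod2 lie near the dotted line, and Oasl2 and Arg1 far from it on opposite sides.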

How the data were processed

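RNA from 10 samples was measured on Illumina mouse bead arrays. The deposited values were background-subtracted, normalized linear intensities, with a normalization method that is not given in the sources used here. The submitters' processing notes list GenomeStudio 2011.1 and say nothing of its role. A further 20 columns of values could not be tied to samples and were not used, so slide effects were not tested. Arrays limit precision by their number.

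Values below 0 were set to 0 and log2(intensity + 16) was taken. The noise bound, 10.9, is the 99th percentile of the sizes of values below 0 and was passed on at least 2 of the 6 adipocyte arrays by each tested gene. Of 45281 probes, 34885 had 1 gene symbol, 18 several and 10378 none, and 34807 matched the RefSeq table by gene identifier. Each gene took its probe of highest mean. limma 3.58.1 in R 4.3.3 was fitted to the 6 adipocyte arrays (eBayes with a variance trend, two-sided, Benjamini-Hochberg threshold 0.05), and to all 10 arrays for the difference of responses. The script was tested on simulated data. A group not above noise on any array gives a bound, "at least N-fold", against the mean over that group's arrays of the larger of the probe's signal and the noise bound.

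The text names the 15 largest rises and falls past the threshold whose groups do not overlap, the 8 rises and 8 falls largest in linear intensity, the 2 members of smallest p in each gene group, the 5 largest differences each way, and called genes not above noise in 1 group. Further members of a group are given to account for its calls. Gene groups were written by hand or, for 14 of 58 symbol families with at least 10 genes tested, by gene symbol. The members and lists were chosen with earlier results of these data known. Alternatives covered arrays in the fit, replicate block, pseudocount, filter, scaling, variance prior, probe choice and each array left out. Replicate numbers were not treated as pairs in the main fit. Deviations of same-numbered adipocyte arrays correlated at 0.0201 to 0.0465, a check on few arrays that cannot exclude pairing. Promoter windows came from RefSeq. Proteomic data of the same cells were not analysed here.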

Additional observations from a re-analysis of the deposited data

Results flagged for a closer look

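The adipocyte and macrophage responses to the bilayer differed, by the limma test of the difference itself, most in 10 genes. The difference, adipocyte minus macrophage log2 change, was 2.97 in Oasl2, 2.52 in Ampd3, 2.22 in Slc25a34, 2.14 in Sema3g and 2.12 in Hmox1. Oasl2 had 243 ± 34.6 in bilayer and 37.5 ± 7.78 in monolayer adipocytes (SD, n = 3 each), and 125 ± 15.6 in bilayer and 212 ± 19.6 in monolayer macrophages (SD, n = 2 each). Sema3g was not above noise on any macrophage array.

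The difference was -2.84 in Arg1, -2.71 in Il1r2, -2.40 in Tnfrsf9, -2.09 in Rgcc and -1.99 in Gpat3. Arg1, the arginase of alternatively activated macrophages, had 110 ± 3.58 in bilayer macrophages and was not above noise in monolayer macrophages. It passed the filter only through the bilayer macrophage arrays, so its call is not independent support for a difference. Il1r2, the decoy receptor for interleukin-1, had 262 and 207 in the bilayer and 22.5 and 30.8 in the monolayer macrophages. Tnfrsf9, a costimulatory receptor, had 510 ± 31.4 in bilayer and 86.4 ± 6.44 in monolayer macrophages (SD, n = 2 each). Gpat3 had 1290 ± 184 in bilayer and 1738 ± 92.9 in monolayer adipocytes (SD, n = 3 each). In macrophages it averaged 46.4 in bilayer and was not above noise in monolayer.

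Probes without a single gene symbol, which entered no gene count, also gave signal. Of 3219 that passed the filter, 105 were higher and 101 lower in bilayer adipocytes past the threshold in a limma fit. In the same fit 1759 of all 20689 probes past the filter were called, so these counts do not set such probes apart.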

How the results depend on the processing

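The 1266 genes past the threshold between bilayer and monolayer adipocytes numbered 195 with no filter on dim probes (126 higher, 69 lower) and 307 with no variance trend (220 higher, 87 lower). The cause was not tested. With single arrays left out the count ran from 756 to 1171. The share of higher genes was 54.1%, 49.8% to 56.3% under other scalings, 64.6% with no filter and 71.7% with no variance trend. The remaining alternatives gave 1033 (mean of all probes) to 1644 genes, the upper value with replicate number as a block, which kept all 1266. The labels do not say whether the numbers pair these samples. The 315 differences between the responses numbered 104 with no filter, 81 with no variance trend, 238 with the replicate block, and 104 to 314 with single arrays left out. Of 115 named adipocyte genes past the threshold, 39 kept their call under each of the 18 alternatives that tested them (17 for Gpr35 and P2ry6), 76 were lost under at least 1, and 0 reversed. No filter lost 70 of them, no variance trend 49 and the mean of probes 9. Among genes that did not pass, Csf1r reversed to -0.15 without monolayer replicate 1 and -0.06 without monolayer replicate 2, within -0.15 to 0.21 over the 4 omissions that left it tested, and Pecam1 to 0.00025 without bilayer replicate 1, within -0.62 to 0.00025. With 4 residual degrees of freedom and no detection calls, no change under 1.16-fold was called, and 1.27% of the dimmest of 4 equal groups of genes were called.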
